A study of Mus musculus with 7 samples.

Results

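The genes of glycolysis and of the pentose phosphate pathway were followed in sorted mouse CD8 dendritic cells, as a set of 36 genes chosen by name among the 27179 genes counted. The set holds the enzymes from hexokinase to lactate dehydrogenase, transporters of glucose and lactate, the pyruvate dehydrogenase complex with its kinases, the enzymes of the pentose phosphate pathway and the transcription factor gene Hif1a. All 36 were found in the count files. Ldhb, a lactate dehydrogenase subunit, had no count in any library, and the other 35 were among the 10863 genes with enough counts to be tested.

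Glycolysis splits glucose into pyruvate, which is either reduced to lactate and exported or passed into the mitochondrion through pyruvate dehydrogenase. The pentose phosphate pathway branches off after hexokinase and yields NADPH, the reducing power of many biosyntheses, and ribose phosphate for nucleotides. Several steps are served by isoenzymes from separate genes, and dendritic cells are known to raise their use of glucose when Toll-like receptors are engaged.

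The study asks about dendritic cells left paralysed by a systemic inflammatory syndrome, and all cells came from C57BL/6 mice. The CpG CD103 high group (n = 2, both dated 2012) came from mice or cells labelled as treated with CpG, a DNA ligand of Toll-like receptor 9, and had a high surface level of the integrin chain CD103. The CD103 negative group (n = 3, replicates 1 and 2 dated 2012 and replicate 3 dated 2013) and the CD103 low group (n = 2, both dated 2013) were untreated. No label or text used here gives the tissue, the age of the mice, the CpG dose, the time after it or the meaning of the dates. The same libraries carried both CpG and the high CD103 level, so the parts of treatment and of CD103 cannot be told apart. The design text speaks of biological replicates, and nothing says how animals were assigned or pooled.

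Libraries held 4474211 to 4629181 counts, and levels are given as counts per 1000000 (CPM) on library sizes scaled by trimmed means. All 15 markers of type 1 conventional dendritic cells, the class to which CD8 dendritic cells belong, were measured. They summed to 26443 and 26514 CPM in CpG CD103 high libraries and 17393 to 20632 in the 5 untreated ones. Of these markers 9 passed the test as higher in CpG CD103 high than in CD103 negative cells, as did 14.5% of all genes tested. Among the 9 was Itgae, the gene of CD103 itself, at 1019 and 992 CPM against 54.3 to 375 in untreated libraries. The groups were defined by CD103, so that call follows from the grouping. Markers of other cells moved as well. The 9 genes of the type 2 dendritic cell list summed to 19.7 to 28.0 CPM against 39.2 to 89.8 in untreated libraries. The 9 macrophage genes summed to 230 to 248 against 339 to 437, and the 9 erythroid and platelet genes to 46.2 to 53.7 against 5.71 to 22.3. Of 6 tested genes of the type 2 list 4 were lower, while Mgl2, not tested, had 10 and 15 counts against 0 or 1. Most of the macrophage sum was Cd68, at 204 CPM in both CpG CD103 high libraries and 253 to 311 in untreated ones. Of 6 tested macrophage genes 3 were lower (Cd68, Vcam1 and Spic). Adgre1 (log2 fold change 0.47, SE 0.45), Csf1r and Mrc1 were not called. Of the B cell list 3 of 4 tested genes were lower, among them Ms4a1 at 8.21 and 9.64 CPM in CpG CD103 high libraries and 47.4 to 69.8 in untreated ones, and Cd22 (log2 fold change -3.01, SE 0.26). The 8 B cell genes nonetheless summed to 475 and 506 CPM against 504 to 531, most of it Ighm. Of the monocyte and neutrophil list 3 of 4 tested genes were higher, S100a9 by 2.98 (SE 0.64), Ly6c2 by 1.96 (SE 0.28) and Ngp by 2.36 (SE 0.68) on the log2 scale, and Ccr2 fell by 1.38 (SE 0.15). S100a9 had 50 and 44 counts against 0 to 12 in untreated libraries, and Ngp 19 and 17 against 0 to 5. Both had enough counts to be tested only through the CpG CD103 high libraries, so their calls follow in part from the filter. Ly6c2 overlapped, at 48.4 and 26.9 CPM against 45.8 in CD103 negative replicate 3. The 10 genes of this list summed to 69.5 and 99.2 CPM against 30.1 to 120 in untreated libraries. The 8 plasmacytoid genes summed to 201 and 227 CPM against 160 to 233, and the 7 natural killer cell genes to 4.03 and 5.77 against 1.08 to 3.68. Of 5 tested plasmacytoid genes Pacsin1 was higher (log2 fold change 2.27, SE 0.18) and Tcf4 lower (-1.31, SE 0.20). CD103 negative replicate 3 stood apart from the other untreated libraries in several of these genes. It had 90 counts of Siglech against 1 to 21, 64.1 CPM of Tcf4 against 24.6 to 36.2, 45.8 CPM of Ly6c2 against 8.56 to 11.3 and 21.3 CPM of Cd209a against 0.862 to 5.29. The T cell genes summed to at most 2.95 CPM in 6 libraries and to 34.7 in CD103 low replicate 2. No gene of these lists was at 0 in all libraries, though some had at most 10 counts over the 7 libraries together. These were 3 of the monocyte and neutrophil list (Ly6g among them), 3 of the B cell, 4 of the natural killer cell and 2 of the erythroid and platelet list. The type 2 dendritic cell list and the T cell list each had 1 such gene. The part of these cells in the results was not tested, and in RNA from whole populations fewer cells of a type and less RNA per cell cannot be told apart.

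CpG CD103 high cells had more RNA than CD103 negative cells for single genes at several steps of glycolysis and less for others at the same steps. Hk3, Pfkp, Aldoa, Eno1, the glucose transporter Slc2a1, the lactate exporter Slc16a3 and Hif1a rose, and Hk1, Pfkl, Eno3, the glucose transporter Slc2a3 and the pentose phosphate genes Tkt and Rpia fell. Thus 13 of the 35 tested genes passed the threshold, an adjusted p under 0.05 in edgeR's quasi-likelihood test with Benjamini-Hochberg adjustment over all genes, 7 of them higher and 6 lower. In the same comparison 26.3% of all genes tested were called, 14.5% higher and 11.8% lower. The median log2 fold change of the 35 was -0.06, beside -0.01 over all genes, and the median size of the change was 0.31 beside 0.29. Rises and falls thus stood side by side, and the medians of the set lay close to those of all genes. Both CpG CD103 high libraries lay above all 5 untreated libraries for 9 of the 35 genes and below them for 7, while this held for 16.3% and 17.6% of all genes tested, 33.9% together. An unadjusted p under 0.05 was seen for 15 of the 35 and for 39.1% of all genes.

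**Figure D1:**
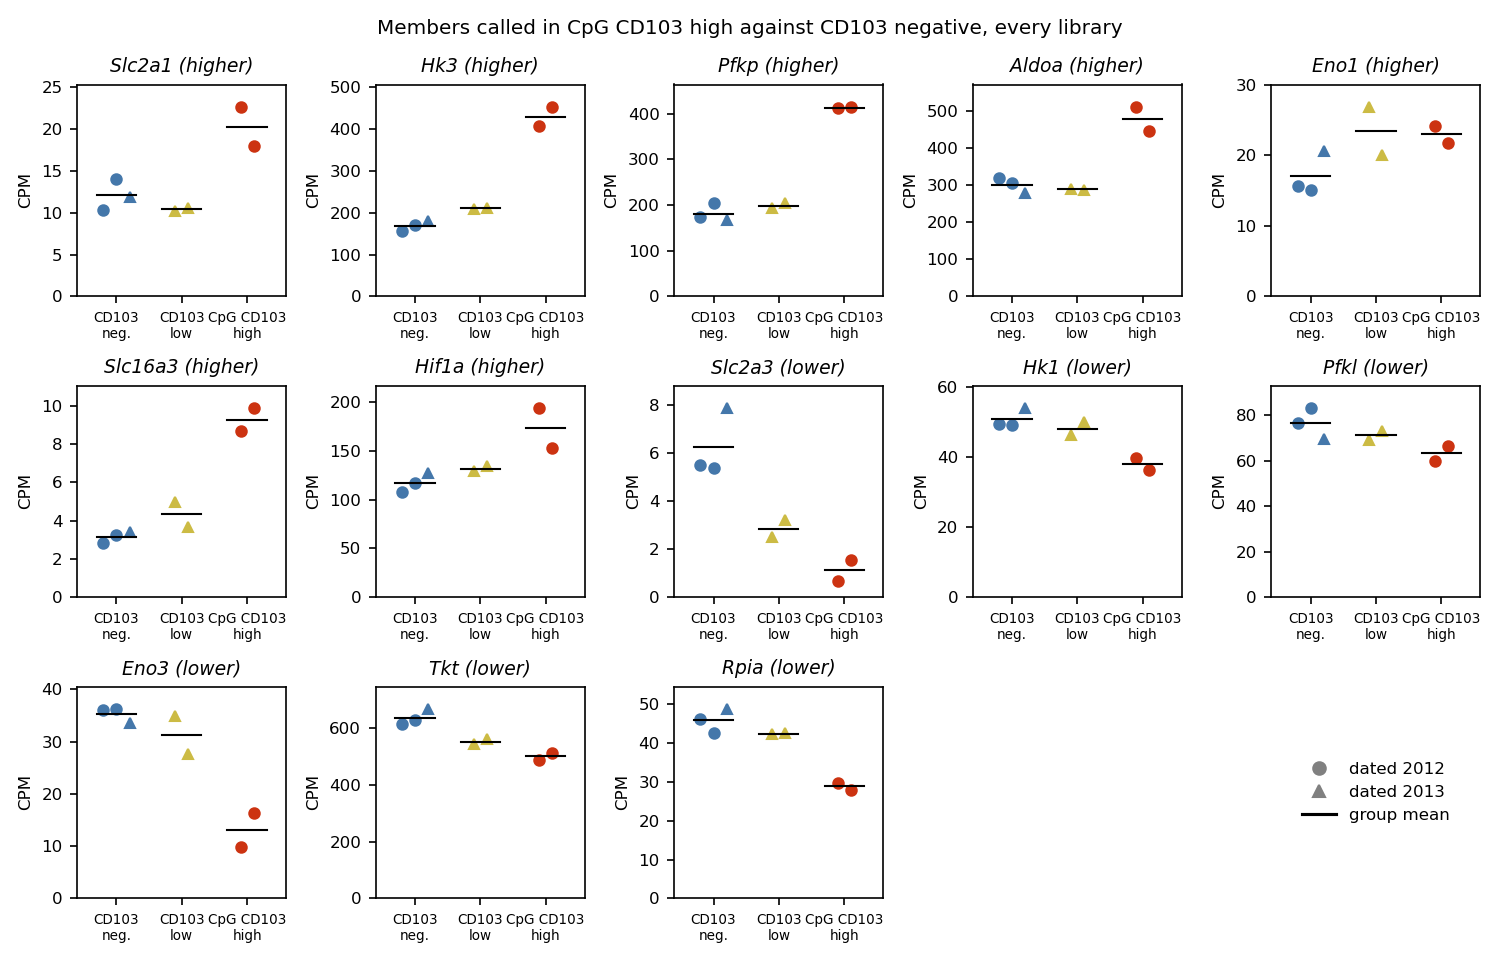
Level in CPM (vertical axes, each from 0) of the 13 genes that differed between CpG CD103 high and CD103 negative cells, with 1 point per library, circles for libraries dated 2012, triangles for those dated 2013 and a bar at each group's mean. In 12 of the 13 panels both CpG CD103 high points lie outside the range of the 5 untreated points, and in the panel of Eno1 they do not.

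Glucose enters the cell through facilitative transporters, of which Slc2a1 encodes the widespread form and Slc2a3 a form of high affinity. Slc2a1 had 22.6 and 17.9 CPM in CpG CD103 high libraries, 10.3, 14.0 and 11.9 in CD103 negative and 10.2 and 10.6 in CD103 low libraries. Slc2a3 had 0.666 and 1.57 CPM in CpG CD103 high, 5.49, 5.39 and 7.87 in CD103 negative and 2.50 and 3.22 in CD103 low libraries. For neither gene did the CpG CD103 high libraries overlap the untreated ones, and the transporters moved in opposite directions. Against CD103 negative cells the log2 fold change was 0.74 (SE 0.21, edgeR adjusted p = 0.0274) for Slc2a1 and -2.26 (SE 0.45, edgeR adjusted p = 0.00555) for Slc2a3. Slc2a3 was a rare transcript, for which 3 and 7 reads were counted in CpG CD103 high libraries and 25 to 37 in CD103 negative ones. The call of Slc2a1 was lost without replicate 1 of CpG CD103 high or of CD103 negative cells, or without either CD103 low library, where the log2 fold change was 0.53 to 0.73 and the edgeR adjusted p 0.0512 to 0.156.

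Hexokinases trap glucose in the cell by phosphorylating it. Hk3 encodes the form typical of myeloid cells, and Hk1 and Hk2 the forms that bind mitochondria. Hk3 (Entrez 212032, chromosome 13, 55005985 to 55021475) had 407 and 452 CPM in CpG CD103 high libraries, 155, 171 and 180 in CD103 negative and 208 and 212 in CD103 low libraries. The groups did not overlap, the CD103 low libraries lay just above the CD103 negative ones, and the CpG CD103 high libraries lay far above both. Its log2 fold change against CD103 negative cells was 1.40 (SE 0.09, edgeR adjusted p = 1.63e-05), the lowest p of the 35 genes. Hk1 had 39.9 and 36.5 CPM in CpG CD103 high, 49.6, 49.4 and 54.1 in CD103 negative and 46.3 and 50.1 in CD103 low libraries. It fell by 0.37 on the log2 scale (SE 0.12, edgeR adjusted p = 0.0444), a call that was lost when any 1 library other than CD103 negative replicate 3 was left out (log2 fold change -0.44 to -0.32, edgeR adjusted p 0.0611 to 0.154). Hk2 stayed between 84.3 and 95.9 CPM in all 7 libraries (log2 fold change -0.09, SE 0.10). Per kilobase of gene length, the 3 hexokinases summed to 155 ± 9.52 CPM in CpG CD103 high (SD, n = 2), 79.4 ± 4.85 in CD103 negative (n = 3) and 91.7 ± 1.10 in CD103 low cells (n = 2). Hk3 made up 84.5% ± 1.11 of that sum in CpG CD103 high cells, 65.1% ± 1.08 in CD103 negative and 70.1% ± 0.0661 in CD103 low cells.

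Phosphofructokinase catalyses the step that commits sugar to glycolysis, and its subunits come from Pfkl (liver type), Pfkm (muscle type) and Pfkp (platelet type). Pfkp (Entrez 56421, chromosome 13, 6579874 to 6649060) had 412 and 415 CPM in CpG CD103 high libraries, 173, 205 and 167 in CD103 negative and 193 and 205 in CD103 low libraries. The CpG CD103 high libraries lay close together and far above all others, and the untreated groups overlapped. Pfkp rose by 1.13 on the log2 scale (SE 0.10, edgeR adjusted p = 6.83e-05). Pfkl had 59.9 and 66.3 CPM in CpG CD103 high, 76.6, 83.0 and 69.4 in CD103 negative and 69.3 and 72.9 in CD103 low libraries. Its log2 fold change of -0.34 (SE 0.11, edgeR adjusted p = 0.0442) was no longer called when any 1 library other than CD103 negative replicate 3 was left out (-0.43 to -0.27, edgeR adjusted p 0.0543 to 0.186). Pfkm, at 9.98 and 11.4 CPM against 6.21 to 7.24 in untreated libraries, did not overlap between treated and untreated but missed the threshold (log2 fold change 0.66, SE 0.23, edgeR adjusted p = 0.0581). The summed level of the 3 genes per kilobase was 124 ± 1.95 CPM in CpG CD103 high, 68.3 ± 6.68 in CD103 negative and 71.0 ± 2.74 in CD103 low cells, and the share of Pfkp in it was 83.5%, 66.6% and 70.1%. The shares of isoenzymes were not tested. The end of Pfkp overlaps Pitrm1 on the opposite strand over 5.58% of its exonic bases, and no source used here says whether counting used strand. That share is taken over 13401 exonic bases of all its annotated transcripts, whereas the deposited gene length is 3986 bases. In the transcript closest to that length, 17.1% of windows of 50 bases also occur, on either strand, in 1 other gene. Pitrm1 itself had a log2 fold change of -0.22 (SE 0.12, edgeR adjusted p = 0.22).

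**Figure D2:**
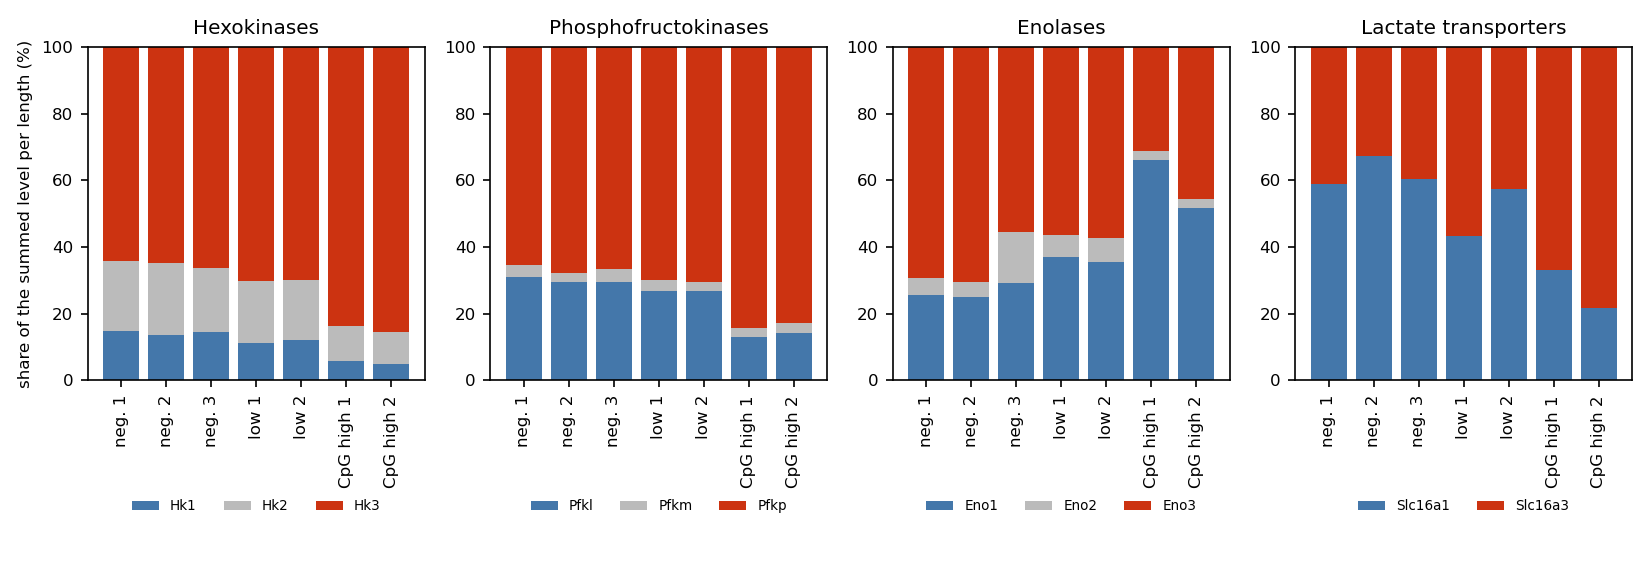
Share of each gene (vertical axis, percent) in the summed CPM per kilobase of its family, with 1 bar per library. Hk3 takes 84.5% and Pfkp 83.5% on average in the CpG CD103 high bars, against 65.1% and 66.6% in CD103 negative bars, while Eno3 takes 38.4% against 65.1%.

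The sequences before the starts of 4 genes are printed because Hk3 and Pfkp had the lowest p-values among those that rose, Eno3 had the lowest p-value among those that fell, and Ldha, a well-known target of the hypoxia-inducible factor, did not pass the test. Each line gives the 250 bases before 1 start, read 5′ to 3′ on the gene's strand, from RefSeq on GRCm38.p6 (mm10). Capitals mark every copy, on either strand, of ACGTG or GCGTG, the core that this factor binds, which read CACGT and CACGC on the other strand. This core overlaps CACGTG, the E-box that other factors bind, and where both strands match, the capitals cover the E-box. The Hk3 window lies at chr13:55021386-55021635 (minus strand), that of Pfkp at chr13:6648772-6649021 (minus strand), that of Eno3 at chr11:70656926-70657175 (plus strand) and that of the start of Ldha shown here at chr7:46845554-46845803 (plus strand). These starts are not the outermost ends of the genes. The windows of Pfkp, Eno3 (gene span 70653125 to 70662513) and Ldha (46842274 to 46855627) lie within the gene spans used here. That of Hk3 lies partly within its span. The windows thus hold sequence inside the genes, and which starts these cells use was not tested.
Hk3: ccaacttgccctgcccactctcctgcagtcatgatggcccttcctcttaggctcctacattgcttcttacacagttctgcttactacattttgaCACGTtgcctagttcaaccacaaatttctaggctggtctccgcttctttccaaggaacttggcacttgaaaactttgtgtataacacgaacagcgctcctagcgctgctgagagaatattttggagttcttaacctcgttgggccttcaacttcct
Pfkp: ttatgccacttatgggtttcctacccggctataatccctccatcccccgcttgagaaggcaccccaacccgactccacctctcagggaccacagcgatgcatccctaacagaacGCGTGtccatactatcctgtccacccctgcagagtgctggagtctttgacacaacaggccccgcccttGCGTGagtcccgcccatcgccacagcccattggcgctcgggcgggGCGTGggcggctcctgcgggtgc
Eno3: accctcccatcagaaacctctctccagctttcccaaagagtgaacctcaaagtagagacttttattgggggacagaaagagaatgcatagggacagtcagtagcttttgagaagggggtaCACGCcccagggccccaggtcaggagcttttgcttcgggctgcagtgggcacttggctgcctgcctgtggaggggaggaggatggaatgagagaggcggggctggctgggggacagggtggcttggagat
Ldha: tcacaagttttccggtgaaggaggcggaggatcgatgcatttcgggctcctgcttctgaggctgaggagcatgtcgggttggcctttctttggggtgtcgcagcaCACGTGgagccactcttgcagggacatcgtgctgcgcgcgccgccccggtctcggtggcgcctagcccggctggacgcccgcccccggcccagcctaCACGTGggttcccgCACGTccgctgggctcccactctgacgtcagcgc
Counting each strand, the windows hold 1 core in Hk3, 3 in Pfkp, 1 in Eno3 and 5 in Ldha, 2 of whose sites are E-boxes. The table holds another start of Ldha, whose window (chr7:46846832-46847081, not printed) has 1 core and no E-box. Of the 36 genes 35 had at least 1 start in the table, and 32 of them (91.43%) held a core in at least 1 of their windows. Among the genes tested with a start in the table this was 62.66%. By window, a core was held by 81.63% of the 49 windows of the 35 genes, 56.85% of the 10882 windows of genes tested and 38.6% of all 32851. The median G and C content was 60.4% in these windows, 60% in those of genes tested and 52.4% in all. All 7 genes that rose and the 5 that fell and have an entry hold a core in at least 1 window. Slc2a3, which also fell, is not in the table.

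Gpi1, Aldoa, Aldoc and Tpi1 carry sugar phosphate from the hexokinase step to the triose level. Aldoa, which encodes the aldolase that splits fructose bisphosphate, had 511 and 447 CPM in CpG CD103 high libraries, 319, 305 and 278 in CD103 negative and 291 and 288 in CD103 low libraries. Both treated libraries lay above all untreated ones, and Aldoa rose by 0.62 on the log2 scale (SE 0.09, edgeR adjusted p = 0.00109). The other genes of these steps did not pass the test. Gpi1, which interconverts glucose and fructose phosphates, was the most abundant of them at 398 to 486 CPM (log2 fold change 0.06, SE 0.10). The triose isomerase Tpi1 and the minor aldolase Aldoc had log2 fold changes of -0.12 (SE 0.09) and 0.23 (SE 0.18). Pfkfb3 and Pfkfb4 encode enzymes that make and remove an activator of phosphofructokinase, and neither passed the test. Pfkfb3 had 275 and 288 CPM in CpG CD103 high libraries and 293 to 351 in untreated ones, just outside each other's range (log2 fold change -0.21, SE 0.10, edgeR adjusted p = 0.141).

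In lower glycolysis the enolases, which make phosphoenolpyruvate, moved in opposite directions. Eno3, known as the muscle form, had 9.76 and 16.4 CPM in CpG CD103 high libraries, 36.01, 36.2 and 33.6 in CD103 negative and 35.0 and 27.6 in CD103 low libraries. The treated libraries lay below all others, and Eno3 fell by 1.47 on the log2 scale (SE 0.22, edgeR adjusted p = 0.00119). Eno1, the widespread form, had 24.2 and 21.7 CPM in CpG CD103 high, 15.6, 15.1 and 20.6 in CD103 negative and 26.8 and 20 in CD103 low libraries. The treated libraries exceeded the CD103 negative ones but not CD103 low replicate 1, and the log2 fold change against CD103 negative cells was 0.58 (SE 0.18, edgeR adjusted p = 0.0424). Without any 1 of the 4 libraries dated 2012 the call of Eno1 was lost (0.50 to 0.64, edgeR adjusted p 0.0828 to 0.152). It is uncertain for another reason too: of all windows of 50 bases in its transcript, 58.1% also occur in other genes, among them the near copy Eno1b, and how the counting handled multi-mapping reads is not stated. Per kilobase, Eno3 held 65.1% ± 8.27 of the summed enolase level in CD103 negative cells and 38.4% ± 10.2 in CpG CD103 high cells, while Eno1 held 26.7% ± 2.22 and 58.9% ± 10.

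Gapdh, Pgk1, Pgam1 and Pkm, which make up the rest of lower glycolysis, did not pass the test. Pkm, which encodes the pyruvate kinase of most tissues, had 250 to 348 CPM (log2 fold change 0.09, SE 0.09). Gapdh had 17.3 and 14.8 CPM in CpG CD103 high libraries and 6.81 to 13.6 in untreated ones (log2 fold change 0.32, SE 0.24, edgeR adjusted p = 0.359). Its level and those of Pgk1 and Pgam1 were low beside their neighbours in the pathway. Averaged over the 7 libraries, the level per kilobase was 10.2 CPM for Gapdh, 6.16 for Pgk1, 3.41 for Pgam1 and 11.6 for Eno1, whereas it was 191 for Aldoa, 62.6 for Tpi1, 113 for Pkm and 216 for Ldha. Among the 36 genes, Gapdh, Pgk1, Eno1 and Pgam1 shared most sequence with others. Windows of 50 bases that also occur in another gene made up 90.4% of the Gapdh transcript (222 other genes), 68.0% of that of Pgk1 and 41.5% of that of Pgam1, against 13.5% for Aldoa, 7.51% for Tpi1, 16.7% for Ldha and 34.4% for Pkm, whose share came near that of Pgam1 while its level was high. The part of shared sequence in these levels was not tested, and the levels of Gapdh, Pgk1, Pgam1 and Eno1 are uncertain.

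**Figure D3:**
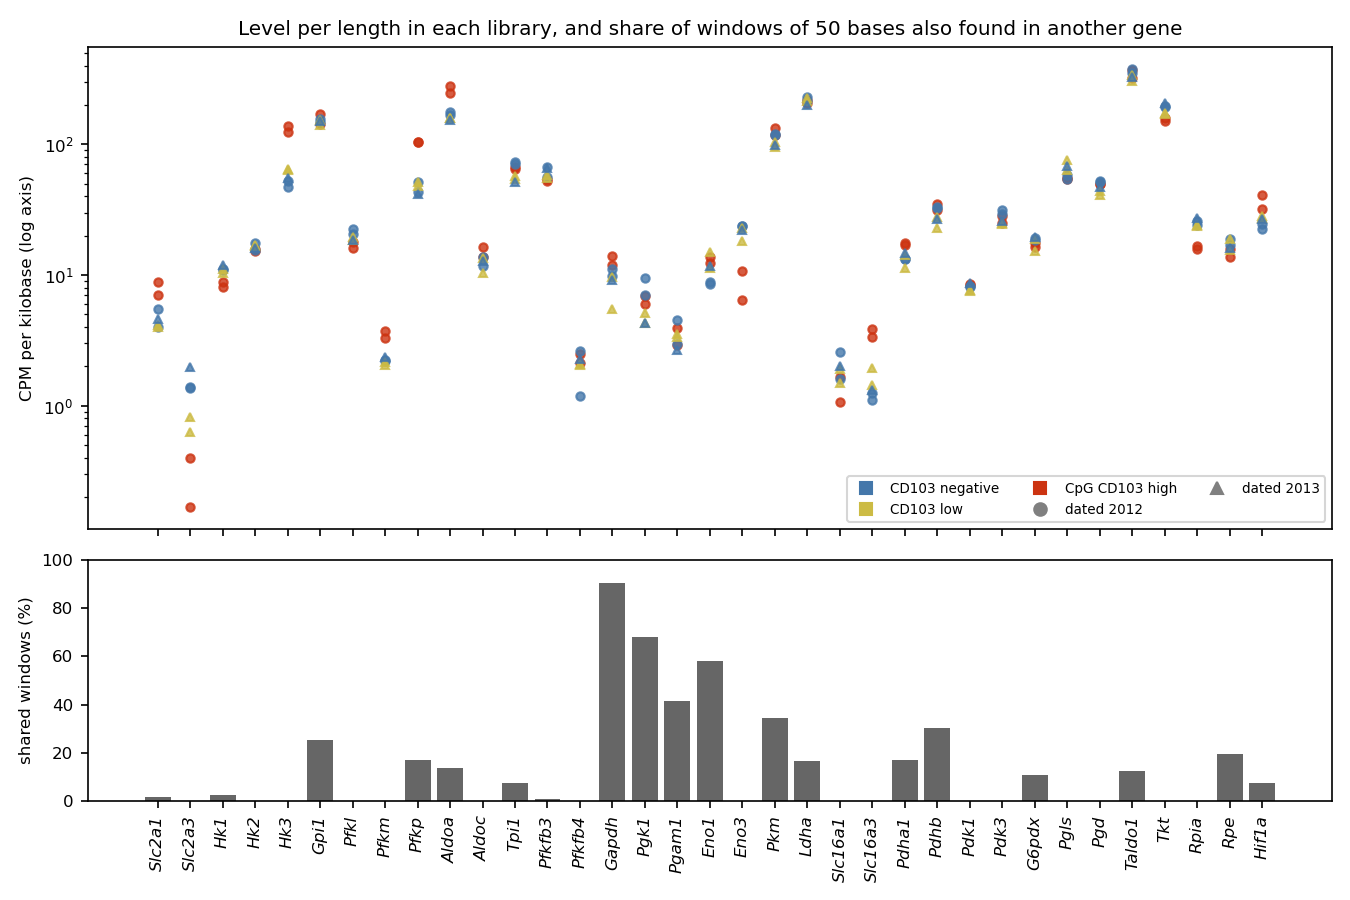
Upper panel, level per kilobase of gene length (CPM per kilobase, log axis) of the 35 genes with counts in each of the 7 libraries, in the order of the pathway. Lower panel, percentage of windows of 50 bases of each gene's transcript that also occur in another gene, where Gapdh (90.4%), Pgk1 (68.0%), Eno1 (58.1%) and Pgam1 (41.5%) are the 4 highest and have levels from 3.41 to 11.6 CPM per kilobase.

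Lactate is made from pyruvate by lactate dehydrogenase and leaves the cell through proton-coupled transporters. Ldha, which encodes the subunit that favours lactate formation, had 423 and 398 CPM in CpG CD103 high libraries, 415, 444 and 388 in CD103 negative and 410 and 440 in CD103 low libraries. The groups overlapped fully, and the log2 fold change of -0.06 (SE 0.09, edgeR adjusted p = 0.613) was within the spread between libraries. Ldhb, the other main subunit, had 0 counts in each library, which allows up to 0.638 to 0.690 CPM by library (3 counts, counting error only). Slc16a3, which encodes a lactate exporter of glycolytic cells, had 8.65 and 9.86 CPM in CpG CD103 high libraries, 2.85, 3.23 and 3.41 in CD103 negative and 5.00 and 3.68 in CD103 low libraries. It rose by 1.59 on the log2 scale (SE 0.31, edgeR adjusted p = 0.00442), with both treated libraries above all others, from 13 to 16 counts in CD103 negative libraries to 39 and 44. Slc16a1, a carrier of lactate in either direction, had 7.32 and 4.71 CPM in CpG CD103 high, 7.03, 11.4 and 8.94 in CD103 negative and 6.58 and 8.51 in CD103 low libraries. Its groups overlapped and it missed the threshold (log2 fold change -0.62, SE 0.33, edgeR adjusted p = 0.19). Slc16a3 held 72.6% ± 7.96 of the level of both carriers per kilobase in CpG CD103 high cells, 37.8% ± 4.46 in CD103 negative and 49.6% ± 9.87 in CD103 low cells.

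Pyruvate dehydrogenase passes pyruvate carbon into the citric acid cycle and is switched off by its kinases. None of the 4 genes of this step passed the test. Pdha1, which encodes the catalytic alpha subunit, had 48.1 and 47.1 CPM in CpG CD103 high libraries and 31.3 to 40.4 in untreated ones, without overlap (log2 fold change 0.38, SE 0.14, edgeR adjusted p = 0.0688). Pdhb, the beta subunit, had a log2 fold change of 0.02 (SE 0.13). Pdk3, the most abundant kinase per kilobase, had 56.6 and 49.98 CPM in CpG CD103 high, 62.4, 58.6 and 51.5 in CD103 negative and 49.7 and 49.2 in CD103 low libraries, and Pdk1 between 38.6 and 44.7 in all. The kinases overlapped between groups, with log2 fold changes of -0.18 (SE 0.12) and 0.05 (SE 0.12).

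The 7 pentose phosphate genes all had a log2 fold change below 0, from -0.62 to -0.04 with a median of -0.16. Of the 7, 2 passed the test (28.6%), a share close to the 26.3% of all genes. Rpia, the isomerase that makes ribose phosphate, had 29.7 and 28.0 CPM in CpG CD103 high libraries, 46.1, 42.7 and 48.7 in CD103 negative and 42.2 and 42.5 in CD103 low libraries. Tkt, the transketolase that returns pentose carbon to glycolysis, had 487 and 513 CPM in CpG CD103 high, 613, 627 and 666 in CD103 negative and 544 and 560 in CD103 low libraries. The treated libraries lay below all untreated ones for both genes, and for Tkt the CD103 low libraries lay between the other groups. Rpia fell by 0.62 on the log2 scale (SE 0.12, edgeR adjusted p = 0.0056) and Tkt fell by 0.31 (SE 0.08, edgeR adjusted p = 0.0167). The oxidative branch, which makes NADPH, did not pass the test: log2 fold changes were -0.15 (SE 0.13) for G6pdx, its entry enzyme, -0.04 (SE 0.13) for Pgls and -0.07 (SE 0.09) for Pgd. Taldo1, the transaldolase, had the highest level per kilobase of all 36 genes (341 CPM) and a log2 fold change of -0.08 (SE 0.10), and Rpe, the epimerase, had -0.28 (SE 0.14). Without CpG CD103 high replicate 1 or CD103 negative replicate 1 or 2, the call of Tkt was lost (-0.33 to -0.28, edgeR adjusted p 0.0508 to 0.072).

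Hif1a encodes the oxygen-labile subunit of the hypoxia-inducible factor, which drives many glycolytic genes. It had 194 and 153 CPM in CpG CD103 high libraries, 107, 117 and 127 in CD103 negative and 129 and 134 in CD103 low libraries. Both treated libraries lay above all others, though they differed from each other, and Hif1a rose by 0.63 on the log2 scale (SE 0.12, edgeR adjusted p = 0.00417). The protein, which is mainly controlled by its breakdown, was not measured.

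Between CpG CD103 high and CD103 negative cells, 22 of the 35 genes were not called, with log2 fold changes from -0.62 to 0.66. For the 16 of them with an SE under 0.2 the range was -0.28 to 0.38. Without CpG CD103 high replicate 1 or CD103 negative replicate 1 the number of genes called was 8 instead of 13. Hk3, Pfkp, Eno3 and Slc2a3 were called under all 16 other settings tried.

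**Figure D4:**
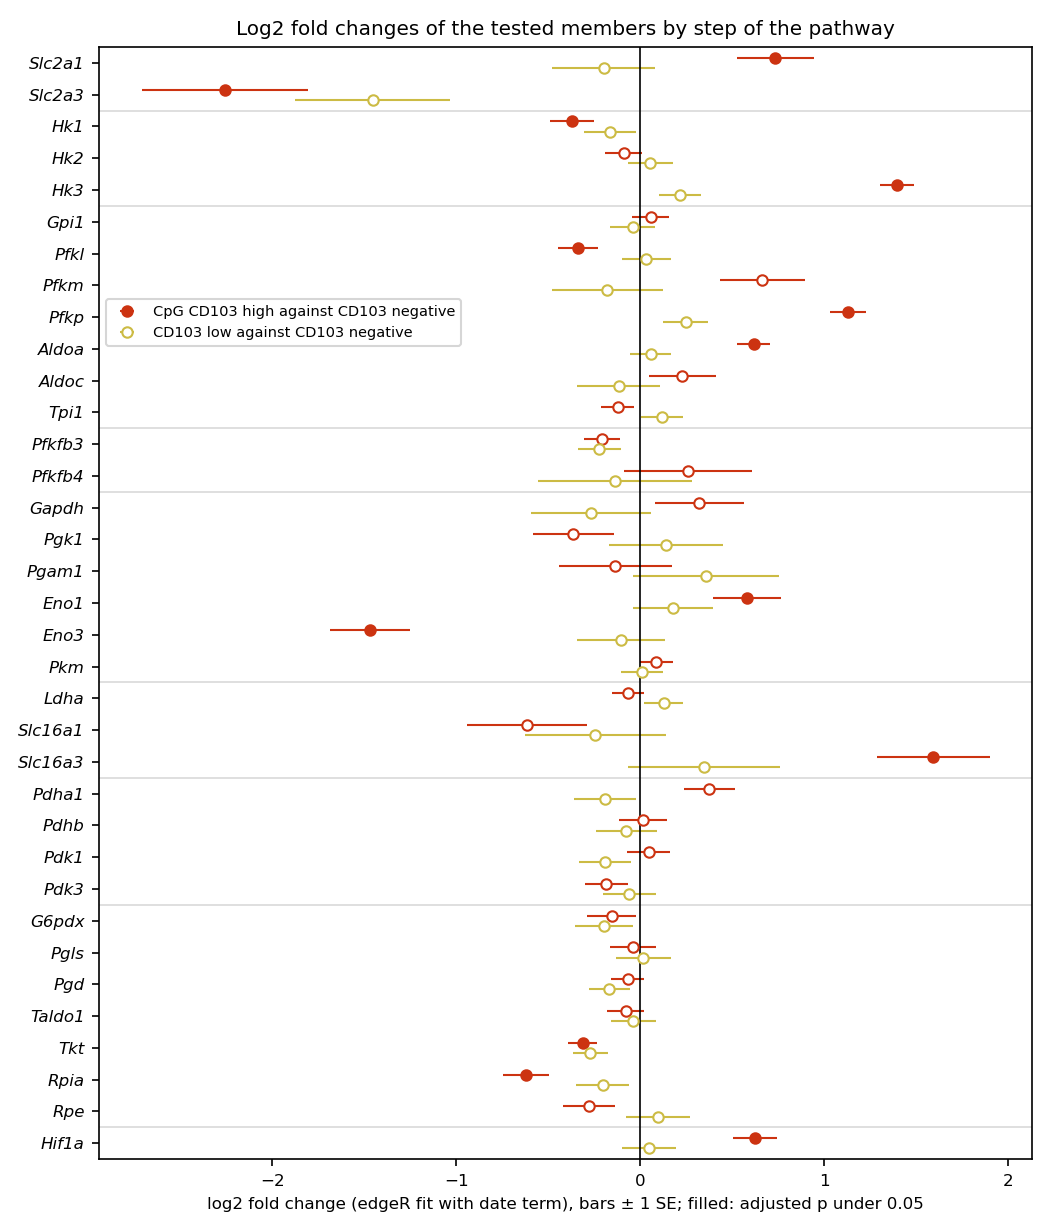
Log2 fold change (horizontal axis) of the 35 tested genes, in the order of the pathway, for CpG CD103 high (red) and CD103 low cells (yellow) against CD103 negative cells, with bars of 1 SE and filled points where the adjusted p was under 0.05. Filled points are the 13 called genes, all of them red, from -2.26 for Slc2a3 to 1.59 for Slc16a3.

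CD103 low and CD103 negative cells were both untreated, so their comparison concerns the level of CD103 without CpG. None of the 35 genes was called in edgeR's test, nor by DESeq2 or limma voom, while edgeR called 0.138% of all genes tested, 0.0552% higher and 0.0829% lower. DESeq2 gave 6318 of the 10863 genes no adjusted p here, Slc2a3 among them, so it could not have called those. An unadjusted p under 0.05 was seen for 2 of the 35, and for 7.34% of all genes tested. With the date as a term, this comparison rested on CD103 negative replicate 3 alone as the control. Slc2a3 had the lowest adjusted p (log2 fold change -1.45, SE 0.42, edgeR adjusted p = 0.352): its CD103 low libraries, at 2.50 and 3.22 CPM, lay below all CD103 negative ones and above both CpG CD103 high ones. Tkt was the other gene with an unadjusted p under 0.05 (log2 fold change -0.27, SE 0.10). Hk3, Pfkp and Aldoa had log2 fold changes of 0.22 (SE 0.11), 0.25 (SE 0.12) and 0.06 (SE 0.11). The median over the 35 genes was -0.06, beside 0.01 over all genes. Without CD103 negative replicate 3, which also takes away the date term, 3 of the 35 genes (Pgd, Tpi1 and Pgk1) were called as lower in CD103 low cells. With the date term Pgd kept its sign (log2 fold change -0.17, SE 0.11), but Tpi1 (0.12, SE 0.11) and Pgk1 (0.14, SE 0.31) had the opposite sign. Tpi1 had 90.8 and 87.4 CPM in CD103 low libraries, 82.2 in CD103 negative replicate 3 and 113 and 117 in replicates 1 and 2. This comparison thus depends on the library that also carried more RNA of Siglech and Tcf4 (plasmacytoid list), Ly6c2 (monocyte list) and Cd209a (type 2 dendritic cell list) than any other untreated library, and the part of such cells was not tested.

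CpG CD103 high and CD103 low cells differed in both treatment and CD103 level, and their direct comparison tests whether the changes from CD103 negative cells differ. Of the 35 genes 4 were called, 3 higher and 1 lower, where 6.22% of all genes tested were called, 3.44% higher and 2.78% lower. An unadjusted p under 0.05 was seen for 8 of the 35 and for 23.5% of all genes tested. Hk3 was higher by 1.18 on the log2 scale (SE 0.14, edgeR adjusted p = 0.00264), Pfkp by 0.88 (SE 0.15, edgeR adjusted p = 0.0128) and Aldoa by 0.56 (SE 0.14, edgeR adjusted p = 0.0479). Eno3 was lower, with a log2 fold change of -1.36 (SE 0.33, edgeR adjusted p = 0.0385). Slc16a3 (1.25, SE 0.53), Slc2a1 (0.93, SE 0.35) and Hif1a (0.58, SE 0.19) missed the threshold with edgeR adjusted p from 0.0948 to 0.191. With no date term 7 of the 35 genes were called, Slc16a3, Slc2a1 and Rpia being added, and leaving out CD103 negative replicate 3 as well gave 9, with Hif1a and Pkm added. Only the call of Hk3 stood whichever single library was left out: that of Pfkp was lost without either CD103 low library (0.84 and 0.93, edgeR adjusted p 0.0815 and 0.0585). Those of Aldoa (0.45 to 0.59, edgeR adjusted p 0.0798 to 0.169) and Eno3 (-1.53 to -1.04, edgeR adjusted p 0.057 to 0.154) were lost without any 1 library other than CpG CD103 high replicate 2 and CD103 negative replicate 3.

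Further genes of the pathways, from lists drawn up by function, were read in the same fit of CpG CD103 high against CD103 negative cells, where 26.3% of all genes were called. Of 12 tested genes of glycolysis and lactate export outside the set, 4 rose and 2 fell. Adpgk, a glucokinase that uses ADP, averaged 73.1 ± 2.68 CPM in CD103 negative and 113 ± 1.87 in CpG CD103 high cells and rose by 0.61 on the log2 scale (SE 0.10, edgeR adjusted p = 0.00153). Pfkfb1 and Pfkfb2, relatives of Pfkfb3, rose by 1.46 (SE 0.33) and 1.05 (SE 0.25) from mean levels of 4.16 and 7.46 CPM. Pklr, the pyruvate kinase of liver and red cells, was called on few counts: 21 and 11 in CpG CD103 high libraries, 0 in each CD103 negative and 3 and 1 in CD103 low libraries. It had enough counts to be tested only through the CpG CD103 high libraries, so its place among the rises follows in part from the filter. Markers of red cells moved the same way, since Hba-a1, a haemoglobin gene, had 13.5 and 13.2 CPM in CpG CD103 high libraries and 0.431 to 5.22 in untreated ones, and the part of such cells was not tested. Emb, which escorts lactate carriers to the membrane, fell by 1.65 (SE 0.24, edgeR adjusted p = 0.00105), and Eno2, the neuronal enolase, fell by 1.43 (SE 0.37). Emb and Eno2 were highest in CD103 negative replicate 3, at 22.6 and 15.96 CPM against 13.8 to 14.9 and 4.10 to 4.39 in the other CD103 negative libraries. The calls of Pfkfb1 and Pfkfb2 were lost without CpG CD103 high replicate 2 or CD103 negative replicate 1 (edgeR adjusted p 0.0563 to 0.0894), and that of Eno2 without any 1 of the 4 libraries dated 2012 (edgeR adjusted p 0.0543 to 0.0723).

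Of 9 tested further genes of the pentose phosphate pathway, 1 rose and 3 fell, and the median log2 fold change was -0.42. Prps2 and Prps1, which activate ribose phosphate for nucleotide synthesis, fell by 0.67 (SE 0.12, edgeR adjusted p = 0.00283) and 0.51 (SE 0.16, edgeR adjusted p = 0.0407), and Dera, an aldolase of deoxyribose phosphate, fell by 0.49 (SE 0.16, edgeR adjusted p = 0.0447). Shpk, the kinase of sedoheptulose, rose by 0.96 (SE 0.25, edgeR adjusted p = 0.0206). Prps1 and Prps2 encode isoenzymes of a single step, which uses the ribose phosphate that Rpia makes. All 3 genes had lower levels in both CpG CD103 high libraries than in any untreated library, as did 17.6% of all genes tested. A link between their falls was not tested. The calls of Prps1 and Dera were lost when any 1 library other than CD103 negative replicate 3 was left out, and that of Shpk without either CpG CD103 high library or CD103 negative replicate 1 (edgeR adjusted p over the 3 genes 0.0526 to 0.219). Of 9 tested further genes of pyruvate entry, such as the mitochondrial pyruvate carriers, none was called in edgeR's test and 2 had an unadjusted p under 0.05 (lowest edgeR adjusted p 0.0909).

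The abundance and activity of the hypoxia-inducible factor depend on hydroxylases and on a ubiquitin ligase. Of 7 tested regulators of the hypoxia pathway 1 was called: Elob, an adaptor of the ubiquitin ligase that degrades the factor, fell by 0.43 (SE 0.13, edgeR adjusted p = 0.0319). Of 12 tested targets of the factor outside glycolysis 2 rose and 2 fell. Ndrg1, a stress-response gene, averaged 30.2 ± 0.81 CPM in CD103 negative and 59.0 ± 1.94 in CpG CD103 high cells and rose by 0.96 (SE 0.13, edgeR adjusted p = 0.00061), and Kdm3a, a histone demethylase, rose by 0.59 (SE 0.11, edgeR adjusted p = 0.00443). Ero1a, an oxidase of the endoplasmic reticulum, fell by 0.44 (SE 0.13) and Higd1a, a mitochondrial protein gene, fell by 1.73 (SE 0.48). The calls of Elob, Ero1a and Higd1a were each lost without single libraries dated 2012 (edgeR adjusted p 0.0671 to 0.232), that of Ero1a also without either CD103 low library.

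Of 16 tested regulators of glucose use 3 rose and 2 fell. Mlxip, a glucose-sensing transcription factor, rose by 0.61 (SE 0.11, edgeR adjusted p = 0.0035), and Arrdc4, a known target of such factors that restrains glucose uptake, rose by 0.76 (SE 0.12, edgeR adjusted p = 0.00161). Mtor, the growth-regulating kinase, rose by 0.43 (SE 0.09, edgeR adjusted p = 0.00687), whereas its activator Rheb fell by 0.46 (SE 0.11, edgeR adjusted p = 0.0154) and Trp53, a tumour suppressor gene, fell by 0.31 (SE 0.08, edgeR adjusted p = 0.0235). Mlxip was not separated from the untreated libraries of the other date: it had 97.2 and 114 CPM in CpG CD103 high libraries, 65.2 and 73.1 in CD103 negative replicates 1 and 2, 122 in replicate 3 and 101 in both CD103 low libraries. Without the date term, Mlxip and Mtor were not called. The calls of Rheb and Trp53 were lost without any 1 of the 4 libraries dated 2012 (edgeR adjusted p 0.0503 to 0.0855). No gene of these lists was called by edgeR between CD103 low and CD103 negative cells, where unadjusted p under 0.05 was seen for 3 genes of glycolysis and lactate export, 2 regulators of glucose use and at most 1 gene of each other list. Between CpG CD103 high and CD103 low cells 6.22% of all genes tested were called. Calls were made for 2 of 12 tested genes of glycolysis and lactate export and 2 of 16 regulators of glucose use. They were also made for 1 of 12 targets of the factor and 1 of 10 genes of branches of glycolysis, and for none of the other lists. Against CD103 low cells, CpG CD103 high cells had higher levels of Ndrg1 (log2 fold change 0.84, SE 0.20) and Adpgk (0.61, SE 0.15) and a lower level of Khk, which phosphorylates fructose (-0.90, SE 0.23), with edgeR adjusted p from 0.0402 to 0.0463. In the same comparison Mlxip (0.88, SE 0.17), Mtor (0.61, SE 0.14) and Bsg, the partner of the lactate carriers (-0.56, SE 0.14), were called in the fit with the date term (edgeR adjusted p from 0.0182 to 0.0423). With no date term the log2 fold changes were 0.06, 0.33 and -0.19 (edgeR adjusted p 0.927, 0.158 and 0.436), and Mlxip was at a like level in CpG CD103 high and CD103 low libraries. Leaving out CD103 negative replicate 3 as well, they were 0.08, 0.35 and -0.18, and of the 3 Mtor alone was called (edgeR adjusted p = 0.0294). With the replicate number as a block in place of the date, Mtor was again the only 1 of the 3 called. That block likewise takes CD103 negative replicate 3 out of the comparison, so it is not a separate check. All 6 calls were lost without either CD103 low library, among others (edgeR adjusted p over all libraries left out 0.059 to 0.695).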

How the data were processed

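Sorted cells of 7 samples were profiled by RNA sequencing of total RNA. The deposited files hold raw counts of reads per gene with a gene length, 1 file per sample, per the file headers. CASAVA, Subread 1.4.6, featureCounts and the build mm10 are named, with neither role nor order, per the submitters' processing notes. The sources used here do not state the annotation release, strand setting or handling of multi-mapping reads. The 7 sample columns of a series-wide table could not be tied to labels by name and were left out.

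Entrez identifiers were matched to symbols through the mm10 RefSeq gene table (25275 of 27179, 93.0%), and the unmatched held 0.533% of counts. Groups were taken from the labels. edgeR 4.0.16 in R 4.3.3 fitted group and date to all 7 libraries (filterByExpr by group, TMM factors, quasi-likelihood F test, 3 residual degrees of freedom), with Benjamini-Hochberg adjustment over 10863 genes and calls at an adjusted p under 0.05. The SE is the log2 fold change divided by the square root of F. The date term in effect sets CpG CD103 high libraries against replicates 1 and 2 of CD103 negative cells and CD103 low libraries against replicate 3. Each ± is an SD over libraries of both dates, and p-values measure the spread between these samples only. Replicates of a group differed by more than sampling noise (chi-square per gene 2.97 to 14.3), so none was merged. Limits from 3 counts cover counting error only, and reads lacking molecular identifiers may repeat a molecule. Levels per kilobase use the deposited gene length.

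Transcripts of GENCODE M21 were cut into windows of 50 bases to find sequence shared with other genes, and its exons were used for overlaps. The edgeR step was tested on simulated counts. All genes called in a comparison and the most abundant gene of each family per kilobase got their value in every sample, and others got ranges. In the further lists, called genes were named, at most 6 per list and comparison. Genes and lists were chosen with earlier results of these data known. Alternatives were DESeq2 1.42.0, voom of limma 3.58.1, other scaling, no filter, a test against a 1.5-fold change, no date term, the shared date alone, a replicate block, leaving out each library and, chosen after seeing the data, a correction for GC content and length.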

Additional observations from a re-analysis of the deposited data

How the results depend on the processing

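For the genes of the set and of the further lists that were called in the fit with group and date, no direction turned in any alternative. Directions over all genes called were not compared. Tpi1 and Pgk1 did turn between CD103 low and CD103 negative cells. They were called as lower in alternatives alone, and had log2 fold changes of 0.12 and 0.14 in the fit with group and date. Genes called between CpG CD103 high and CD103 negative cells numbered 2860, of which 13 belonged to the set. The counts became 1459 and 7 with DESeq2, 518 and 5 in the test against a 1.5-fold change, 1589 over all genes with no date term, and ranged from 1738 to 2290 and from 8 to 10 when 1 library other than CD103 negative replicate 3 was left out. Leaving out CD103 negative replicate 3 also takes away the date term, and gave 2861 and 13. Between CD103 low and CD103 negative cells 15 genes and none of the set were called. Over all genes this became 1 with no filter, 40 with DESeq2 (which gave 6318 genes no adjusted p), 3 in the test against 1.5-fold, 187 on the shared date alone and 23 with the GC and length correction. Leaving out 1 other library gave 1 to 27 over all genes and 0 in the set, and without CD103 negative replicate 3 these were 1035 and 3. Between CpG CD103 high and CD103 low cells 676 genes and 4 of the set were called. These became 263 and 2 with no filter, 382 and 2 with DESeq2, 104 and 1 against 1.5-fold, 7 in the set with no date term, 115 to 748 and 1 to 5 with 1 other library left out, and 1668 and 9 without CD103 negative replicate 3. The shared date gives no value here, since these groups share none.

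Among the genes called between CpG CD103 high and CD103 negative cells, the calls of Hk3, Pfkp, Eno3 and Slc2a3 held in all 16 alternatives. Those of Aldoa and Hif1a were lost against 1.5-fold alone, that of Slc16a3 with DESeq2 alone and that of Rpia in both of these. Tkt was lost in 4 alternatives, Slc2a1 in 8, Hk1 and Eno1 in 10 and Pfkl in 11. The GC and length correction added Pdha1 (higher) and Pfkfb3 (lower) and dropped Slc2a1 and Eno1. Same-numbered replicates did not deviate together in every pair of groups: across genes the correlation of their deviations was 0.17 between CpG CD103 high and CD103 negative, -0.01 between CpG CD103 high and CD103 low and 0.00 between CD103 negative and CD103 low libraries. The numbers were therefore not taken to pair the samples. With the replicate block in place of the date, 1175 genes and 2 of the set (Hk3 higher, Tpi1 lower) were called between CD103 low and CD103 negative cells, 1775 and 9 between CpG CD103 high and CD103 low cells, and 3013 and 13 between CpG CD103 high and CD103 negative cells.

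The 2 or 3 libraries per group and counts of 3 to 37 for Slc2a3 limit the precision of its change, and the date cannot be told apart from the group for CpG CD103 high against CD103 low cells except through the CD103 negative libraries. Gapdh, Pgk1, Pgam1 and Eno1 share sequence with other genes and are uncertain.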

Other observations

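Side routes of glycolysis held further called genes between CpG CD103 high and CD103 negative cells, where 26.3% of all genes tested were called. Of 10 tested genes of branches 1 rose and 4 fell. Psat1, which makes the precursor of serine from a glycolytic intermediate, had 24.8 and 25.5 CPM in CpG CD103 high libraries, 40.6, 45.9 and 42.4 in CD103 negative and 38.1 and 39.5 in CD103 low libraries. It fell by 0.78 on the log2 scale (SE 0.13, edgeR adjusted p = 0.00224). Gfpt1, which diverts fructose phosphate to hexosamines, fell by 0.33 (SE 0.09), Khk, the fructose kinase, fell by 0.47 (SE 0.14) and Sord, which makes fructose from sorbitol, fell by 0.85 (SE 0.27), with edgeR adjusted p from 0.0228 to 0.0427. Aldh3b1, an aldehyde dehydrogenase, rose by 0.42 (SE 0.12, edgeR adjusted p = 0.0256). Apart from that of Psat1, these calls were each lost when single libraries were left out (edgeR adjusted p 0.0547 to 0.194).

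Of 12 tested genes of glycogen turnover and gluconeogenesis 1 was called: Pygl, a phosphorylase that releases glucose phosphate from glycogen, fell by 1.43 (SE 0.36, edgeR adjusted p = 0.0159), and the call was lost without CpG CD103 high replicate 1 or CD103 negative replicate 1 (edgeR adjusted p 0.0821 and 0.0925). Slc2a6, a sugar transporter of leukocytes, had 5.77 and 7.62 CPM in CpG CD103 high libraries, 13.2, 10.3 and 11.5 in CD103 negative and 10.9 and 9.88 in CD103 low libraries. It fell by 0.81 (SE 0.25, edgeR adjusted p = 0.0354) and was not called without replicate 1 of CpG CD103 high or of CD103 negative cells, or without either CD103 low library (edgeR adjusted p 0.0594 to 0.178). Eno1b, the near copy of Eno1, had 9.03 CPM on average in CpG CD103 high and 5.62 in CD103 negative libraries and was not called.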
